A study of Rattus norvegicus with 6 samples.

Results

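H19 and 9 further imprinted genes were followed in the rat hippocampus: Meg3, Dlk1, Peg3, Peg10, Plagl1, Grb10, Cdkn1c, Ndn and Snrpn. Of these 10 genes, 6 were among the 15168 genes that could be named on the array. Hippocampal tissue came from adult male Sprague Dawley (SD) rats. The AD group (3 samples) had received oligomers of the amyloid peptide Aβ1–42 into the cerebral ventricles, a model of Alzheimer's disease made by injection and not by a transgene, and the Sham group (3 samples) had received the vehicle through a cannula by the same route. Each sample was hybridized to 1 single-colour Agilent rat array. The genes were selected on measured levels of this same comparison, the higher H19 level in AD among them, so their differences are given below as a description and without a test. The labels do not tie a hippocampus to an animal, and p-values for other genes therefore measure the spread between these tissue samples.

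Imprinted genes are transcribed mainly from the copy inherited from a single parent, which a DNA methylation mark set in the germ line decides. Many lie in clusters that share a control region. H19 is a long non-coding RNA made from the maternal copy, and its neighbour Igf2, which encodes insulin-like growth factor 2, is made from the paternal copy in most mouse tissues; both depend on the same enhancers. Imprinted genes are known for their part in fetal growth and in the development of the brain, and several, such as Ndn and Snrpn, remain strongly transcribed in adult neurons.

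H19 is also the host transcript of a microRNA. The RefSeq table of the GRCr8 assembly places the miR-675 hairpin inside the H19 gene, at chr1:207161752-207161835 on the minus strand. Its mature products are shown because they are the part of H19 that acts as a small RNA; capitals mark the seed, bases 2 to 8, through which a microRNA pairs with its targets.
rno-miR-675-5p: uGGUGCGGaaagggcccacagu
rno-miR-675-3p: uGUAUGCCcuaaccgcucagu
The seeds differ from each other, and each belongs to 1 of the 693 mature rat microRNAs in that table. The array probe reads the H19 transcript and not these microRNAs.

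The 6 genes with a probe whose accession belonged to them had 9 probes in all: 1 each for H19, Dlk1 and Ndn, and 2 each for Plagl1, Cdkn1c and Snrpn. For Meg3, Peg3, Peg10 and Grb10 no probe was matched, and they were not analysed here. A probe was tested when its signal was clearly over background on 3 or more of the 6 arrays; all 9 probes met this, and 8 of them did so on every array. Levels are log2 processed signals minus the 75th percentile of the same array, so that a level of 0 is the signal of a probe at that percentile. Levels of different probes cannot be set against each other, since probes differ in brightness.

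The 6 arrays were alike, since the Pearson correlation across probes was 0.988 to 0.994 among AD arrays, 0.979 to 0.993 among Sham arrays and 0.976 to 0.987 for an AD with a Sham array. The AD arrays shared 1 scan, whereas Sham replicates 1 and 2 were in another scan of the same day and Sham replicate 3 was scanned on another day. The signal at the 75th percentile was 796 to 932 on the AD arrays, 753 and 755 on Sham replicates 1 and 2, and 429 on Sham replicate 3. The scan and the group cannot be told apart. Over all 22768 tested probes, limma with Benjamini-Hochberg adjustment called 948 higher and 1924 lower in AD at an adjusted p under 0.05, so that 33.0% of the calls were higher; with the 75th percentile taken over probes detected on every array it was 53.5%. Of 11949 named genes, each by its brightest tested probe, 15.0% were called, 4.10% higher and 10.9% lower in AD, and 44.1% had AD levels that did not overlap the Sham levels. Against this background stand 3 of the 6 genes called (1 higher, 2 lower) and 4 of 6 without overlap, numbers from which nothing is read because the same values were in view when the genes were chosen.

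H19 stood higher on every AD array than on any Sham array. Its level was -2.98, -2.59 and -1.66 in AD samples 1, 2 and 3, against -4.19, -4.10 and -3.84 in Sham samples 1, 2 and 3. The processed signals behind these levels were 113, 132 and 294 on the AD arrays and 41.3, 44.1 and 30.1 on the Sham arrays, so the groups were apart before any scaling. The AD mean was -2.41 ± 0.68 and the Sham mean -4.04 ± 0.18 (SD, n = 3 each), a difference of 1.63 ± 0.34 on the log2 scale (standard error of the fit), or 3.09-fold. The spread lay mostly in AD, where replicate 3 was the highest array, and the difference was 1.26 without it. Among the arrays scanned on the same day, here and below all but Sham replicate 3, the difference was 1.73. The AD and Sham arrays of that day were still in different scans. A background correction by a convolution model (normexp) lowered it to 0.87, still with no overlap between the groups.

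**Figure D1:**
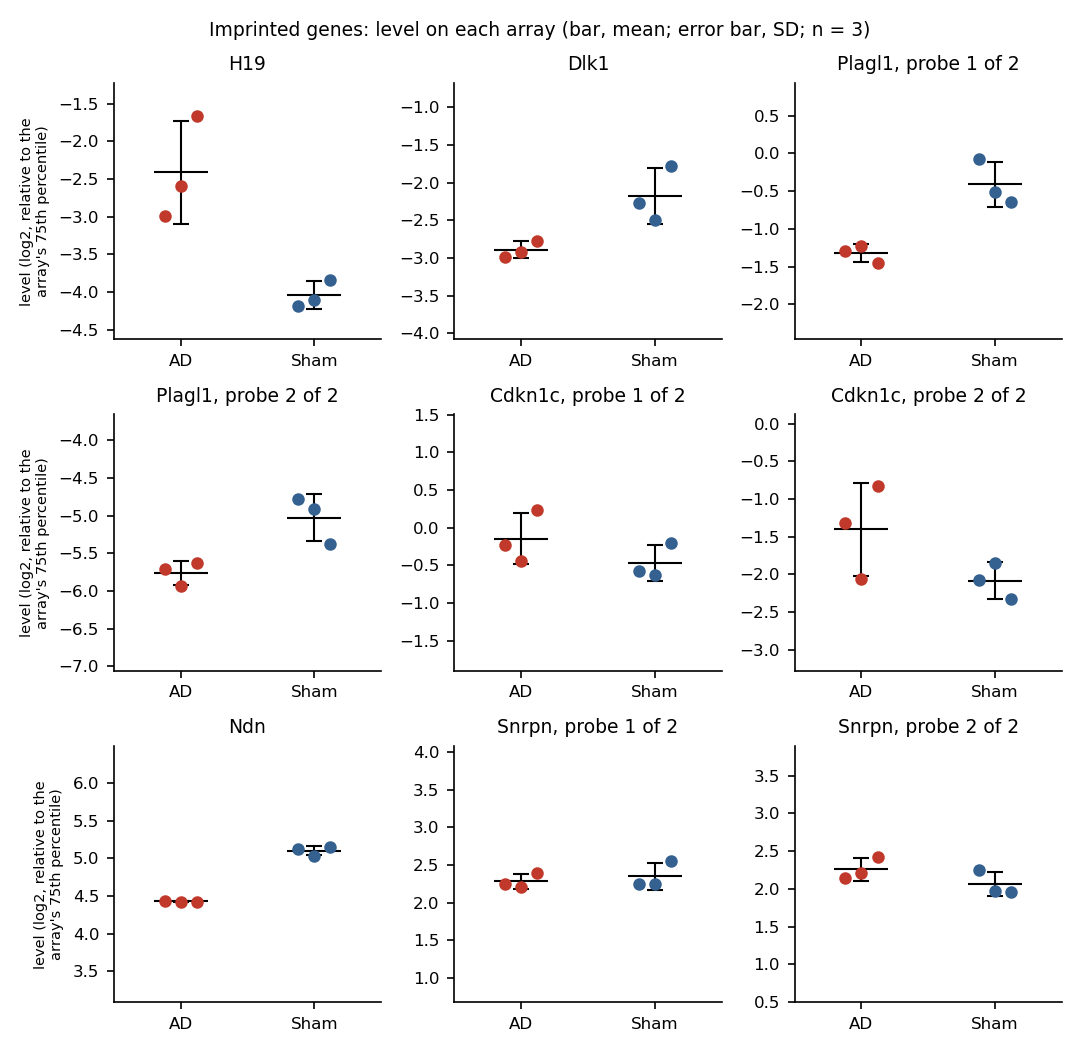
Level of each probe of H19, Dlk1, Plagl1, Cdkn1c, Ndn and Snrpn on the 6 arrays (log2, relative to the array's 75th percentile). Red points are AD arrays and blue points Sham arrays; the bar is the mean and the error bar the SD (n = 3). H19 is higher on all 3 AD arrays, Dlk1, Ndn and both Plagl1 probes are lower, and the Cdkn1c and Snrpn points overlap.

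Plagl1, also called Zac1, encodes a zinc finger transcription factor made from the paternal copy that in the mouse acts on other imprinted genes, H19 among them. Its brighter probe had levels of -1.29, -1.22 and -1.45 in AD and of -0.08, -0.51 and -0.65 in Sham. All AD values were below all Sham values, with a difference of -0.91 ± 0.17 (standard error), which is 1.88-fold lower in AD. The second probe, well above background on 2 of the 3 AD arrays and on all 3 Sham arrays, gave -5.71, -5.94 and -5.63 in AD against -4.78, -4.92 and -5.38 in Sham, a difference of -0.74 ± 0.18. Both probes thus ran the same way, although with the normexp correction the dimmer one differed by -0.21 and the brighter one by -0.78. In arrays of the same scan day the brighter probe differed by -1.03.

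Dlk1 encodes a membrane protein related to Notch ligands and is made from the paternal copy, at the opposite side of its cluster from Dio3. Its levels were -2.98, -2.92 and -2.77 in AD and -2.26, -2.49 and -1.78 in Sham. The lowest Sham array was 0.28 above the highest AD array, so the groups did not overlap, and the difference was -0.71 ± 0.19 (standard error), or 1.64-fold lower in AD. Within the same scan day it was -0.51. The processed signals themselves overlapped, at 113, 105 and 137 in AD and 157, 134 and 125 in Sham, since the array of Sham replicate 3 was dimmer as a whole.

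Ndn encodes necdin, a protein of the MAGE family made from the paternal copy and abundant in neurons that no longer divide. Its probe was spotted 10 times on each array, with an SD between its spots of 0.039 to 0.104 on the log2 scale. Its level was 4.43 on each of the 3 AD arrays and 5.12, 5.03 and 5.15 on the Sham arrays. The means were 4.43 ± 0.0043 in AD and 5.10 ± 0.063 in Sham (SD, n = 3 each), a difference of -0.67 ± 0.080 (standard error) or 1.60-fold lower in AD. The difference was -0.65 within the same scan day, and its size depended on the scaling, falling to -0.45 with quantile normalization. As for Plagl1, the unscaled signal of Sham replicate 3 lay below those of the 3 AD arrays.

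Cdkn1c and Snrpn showed no separation of the groups. Cdkn1c encodes p57, an inhibitor of cyclin-dependent kinases made from the maternal copy. Its brighter probe had levels of -0.23, -0.44 and 0.23 in AD and of -0.58, -0.63 and -0.20 in Sham, a difference of 0.32 ± 0.21 (standard error). The second Cdkn1c probe, which the files assign to another transcript record of the gene, had -1.32, -2.06 and -0.83 in AD against -2.07, -1.84 and -2.33 in Sham, a difference of 0.68 ± 0.32. Without Sham replicate 3 the groups no longer overlapped on the brighter probe, and the difference was 0.46, whereas it was 0.14 without AD replicate 3. On both probes AD replicate 3 was the highest array and AD replicate 2 lay within the Sham range. Snrpn encodes SmN, a protein of the splicing machinery found in neurons, and its paternal transcript is the host of small nucleolar RNAs. The brighter Snrpn probe had levels of 2.25, 2.20 and 2.39 in AD and of 2.25, 2.24 and 2.55 in Sham, and the second had 2.14, 2.21 and 2.42 in AD and 2.24, 1.97 and 1.96 in Sham. The differences were -0.07 ± 0.12 and 0.20 ± 0.13 (standard errors), and the sign of the first one turned with every other scaling tried except median scaling (quantile normalization gave 0.08) and with the normexp correction.

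**Figure D2:**
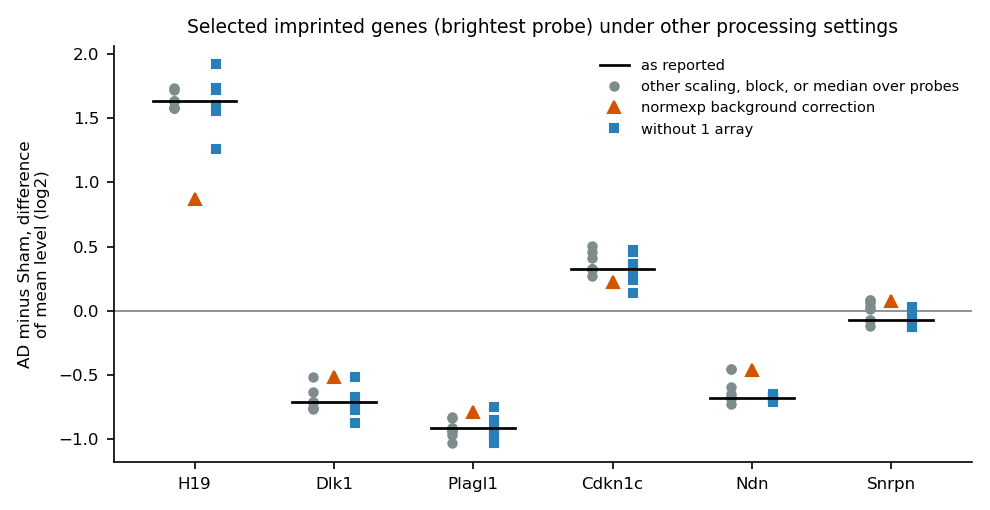
Difference of the mean level, AD minus Sham (log2), for the brightest probe of each of the 6 genes under other processing settings. The black line is the reported value, grey points are other scalings, blocks or the median over a gene's probes, the triangle is the normexp background correction and blue squares leave out 1 array; H19 ranges from 0.87 to 1.92 and Plagl1 from -1.03 to -0.75, while Snrpn lies on both sides of 0.

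The promoters of the 3 genes that stood lower in AD are shown because the control of imprinted genes works through methylation of CG pairs. They are the RefSeq windows of the GRCr8 assembly from 250 bases before to 50 after the gene's start, 300 bases each, with CG pairs in capitals. Of the 10 genes, 8 had an entry in that table, and H19 and Cdkn1c had none. Methylation was not measured, and whether these windows lie in a control region of their clusters was not examined. The window of Dlk1 is at chr6:134192347-134192646 (plus strand), that of Plagl1 at chr1:9297214-9297513 (plus strand) and that of Ndn at chr1:125260809-125261108 (plus strand).
Dlk1: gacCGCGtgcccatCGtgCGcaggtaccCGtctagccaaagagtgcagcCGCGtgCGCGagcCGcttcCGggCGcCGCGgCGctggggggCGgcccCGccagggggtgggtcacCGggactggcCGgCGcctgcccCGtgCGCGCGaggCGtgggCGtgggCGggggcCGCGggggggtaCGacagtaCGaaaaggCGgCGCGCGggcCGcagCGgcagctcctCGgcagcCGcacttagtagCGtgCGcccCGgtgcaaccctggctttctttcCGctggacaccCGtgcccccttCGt
Plagl1: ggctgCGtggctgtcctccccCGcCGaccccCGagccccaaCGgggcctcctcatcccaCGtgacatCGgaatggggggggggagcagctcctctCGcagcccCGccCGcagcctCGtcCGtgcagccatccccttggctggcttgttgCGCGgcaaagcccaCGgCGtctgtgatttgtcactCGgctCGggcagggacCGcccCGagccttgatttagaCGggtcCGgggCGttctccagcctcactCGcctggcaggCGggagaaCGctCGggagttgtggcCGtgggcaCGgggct
Ndn: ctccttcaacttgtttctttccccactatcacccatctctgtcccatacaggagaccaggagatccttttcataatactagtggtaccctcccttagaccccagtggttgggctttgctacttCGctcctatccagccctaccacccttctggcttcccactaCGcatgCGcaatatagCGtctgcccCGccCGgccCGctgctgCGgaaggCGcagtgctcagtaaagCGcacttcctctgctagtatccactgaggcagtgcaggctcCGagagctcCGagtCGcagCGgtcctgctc
These 3 promoters differ in CG content. Dlk1 has 45 CG pairs, a number that 1.66% of the 33469 promoters in the table reach, Plagl1 has 29 (reached by 11.5%) and Ndn has 14 (reached by 33.5%). The letters GGGGCCCC, a form of the motif described for the Plagl1 protein that reads the same on both strands, were searched in every window. They occur in 0.858% of all promoters and in 1 of the 8 windows of the selected genes, that of Peg3. H19 and Cdkn1c, which had no window, were not searched. A match is only a match of letters in this window.

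To set the 6 genes beside others of their kind, 44 further imprinted genes were listed by their imprinting in mouse or rat and not by how they moved, although the values of Igf2, Dio3 and Slc38a4 were already known. A tested probe was found for 28 of them. Of these 28 genes, 8 fell in AD and 0 rose at an adjusted p under 0.05 (limma), beside 10.9% and 4.10% of all named genes, and 18 of 28 had an unadjusted p under 0.05, as had 35.4% of all named genes. Without the 3 genes known beforehand, 6 of 25 fell. The median difference of the 28 genes was -0.36, against -0.05 over all named genes, and 17 of them lay lower in AD with no overlap, as did 28.4% of all named genes. The number that fell was 0 when AD replicate 1, 2 or 3 or Sham replicate 1 or 2 was left out, 11 without Sham replicate 3, and 0 with scan as a random block, where the lowest adjusted p among them was 0.17 (limma).

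The largest fall was that of Dio3, which encodes the deiodinase that inactivates thyroid hormone and lies in the same cluster as Dlk1 and Meg3. Its level was -3.28, -2.93 and -3.93 in AD and -0.46, -0.45 and -1.23 in Sham, a difference of -2.67 ± 0.32 (standard error, adjusted p = 0.018 by limma, range over the alternatives 0.0013 to 0.17). Dio3 and Dlk1 were thus both lower on every AD array, by unequal amounts. Slc38a4, an amino acid transporter, followed with -4.92, -4.94 and -4.93 in AD and -2.19, -2.78 and -3.07 in Sham (difference -2.25 ± 0.22, adjusted p = 0.018 by limma, range over the alternatives 0.0013 to 0.17). The normexp correction lowered these to -2.02 for Dio3 and -1.05 for Slc38a4.

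The other 6 genes that fell moved by less than 1 on the log2 scale. They were Ddc (-0.83), which encodes the decarboxylase that makes dopamine and serotonin, Klf14 (-0.83), a transcription factor of the Krüppel-like family, Impact (-0.69), a regulator of translation, Nap1l5 (-0.66), a member of the nucleosome assembly protein family, Trappc9 (-0.56), a part of a vesicle trafficking complex, and Inpp5f (-0.41), a phosphoinositide phosphatase. Their adjusted p ran between 0.022 for Impact and 0.042 for Ddc (limma), and each stood lower on all 3 AD arrays than on any Sham array. The Klf14 probe was well above background on 2 of 3 AD arrays, and with the normexp correction its difference was -0.21 and its adjusted p 0.17 (limma). Ddc had a second probe that differed by 0.13 with overlapping groups, so its probes did not run together. Htr2a, a serotonin receptor, had a difference of -1.20 but an adjusted p of 0.065 (limma), and it was well above background on 1 of 3 AD arrays.

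**Figure D3:**
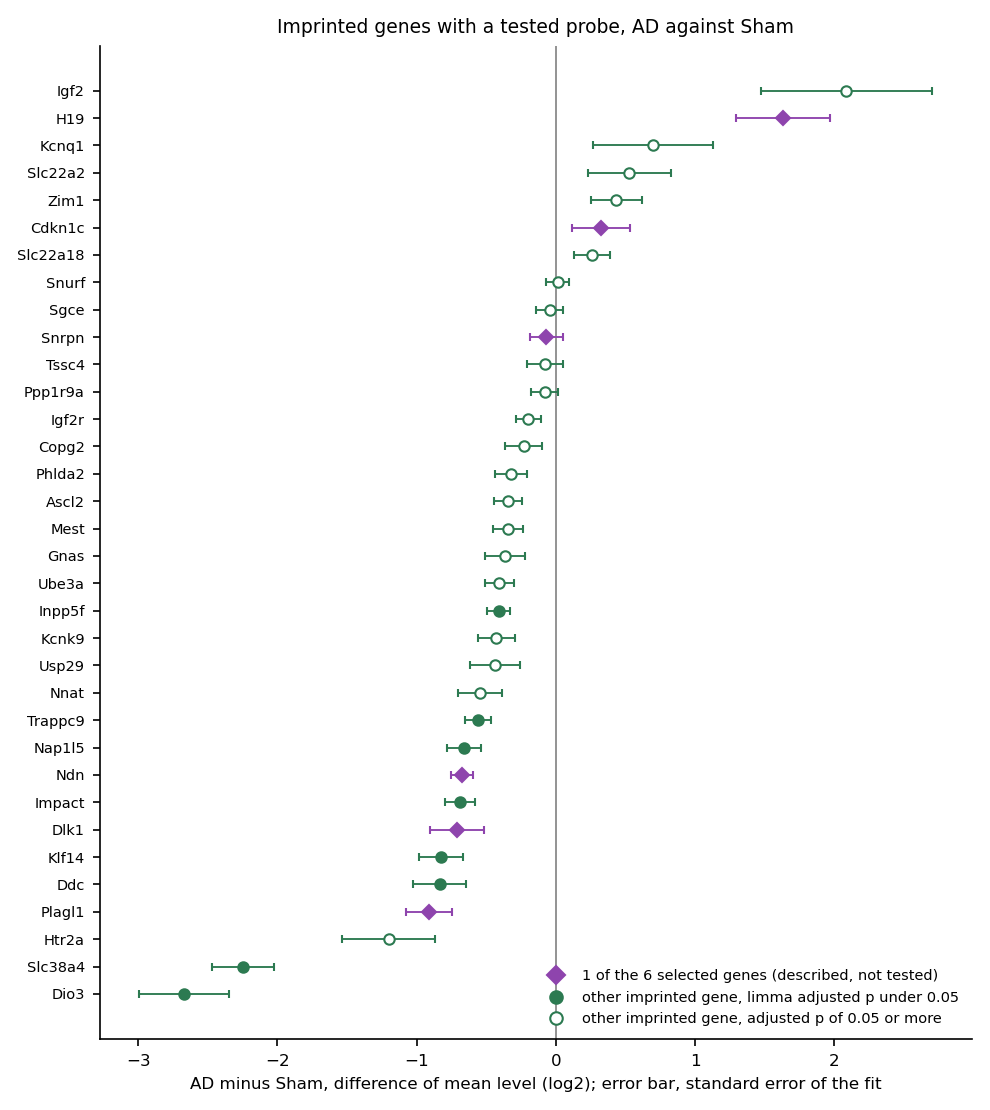
Difference of the mean level, AD minus Sham (log2), of every imprinted gene with a tested probe, 1 probe per gene, with the standard error of the fit. Diamonds are the 6 selected genes, filled circles are other imprinted genes with a limma adjusted p under 0.05 and open circles those without; Dio3 (-2.67) and Slc38a4 (-2.25) stand at the lower end and Igf2 (2.09) at the upper end.

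In the order of the RefSeq genes, the imprinted genes that follow H19 did not all move alike. Igf2, the next annotated gene after H19 and its microRNA, had levels of 4.01, 2.11 and 4.59 in AD and of 1.29, 1.43 and 1.73 in Sham. The groups did not overlap, and the difference of 2.09 ± 0.62 (standard error) had an adjusted p of 0.077 (limma). Further along, in the region of Kcnq1 and Cdkn1c, lie Ascl2 (-0.34), Tssc4 (-0.08), Kcnq1 (0.70), Cdkn1c (0.32), Slc22a18 (0.26) and Phlda2 (-0.32). None of these was called by its brightest probe. Phlda2, a gene known for its part in placental growth, was called on its dimmer probe only, with a difference of -0.54 ± 0.12 (adjusted p = 0.037 by limma). With the normexp correction that probe differed by -0.21 (adjusted p = 0.11 by limma), and its unscaled signals overlapped between the groups. Around Ndn, Ube3a, which encodes a ubiquitin ligase, differed by -0.41 ± 0.10 (adjusted p = 0.052 by limma) and Snurf, which shares its transcript with Snrpn, by 0.01 ± 0.085. Probes of Snurf and Snrpn can read the same RNA, and both were close to 0 while Ndn was -0.67. Near Peg3, Usp29 differed by -0.44 and Zim1 by 0.43, and neither passed the test. The Zim1 probe was well above background on 2 of 3 AD and 1 of 3 Sham arrays. With the normexp correction it differed by 0.03, and a second Zim1 probe differed by 0.04 with overlapping groups. Sgce, next to Peg10, differed by -0.04. The next protein-coding gene to Grb10 was Ddc, given above.

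**Figure D4:**
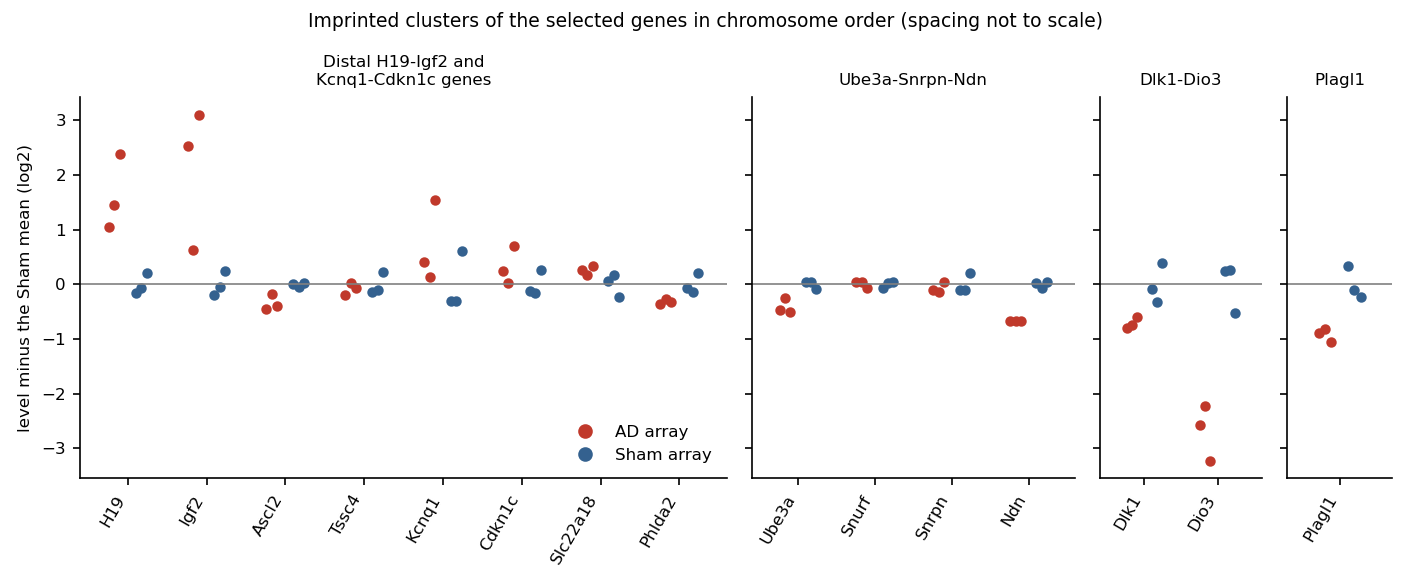
Level minus the Sham mean (log2) on each array for genes with a tested probe in the imprinted clusters of the selected genes, in chromosome order with spacing not to scale. Red points are AD arrays and blue points Sham arrays, 3 each; H19 and Igf2 lie above the Sham arrays, Dio3, Dlk1, Ndn and Plagl1 below them, and Snurf and Snrpn among them.

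Markers of other tissues moved along with some of these genes, and in whole tissue fewer cells of a type and less RNA per cell cannot be told apart. Igf2 is known in the adult rodent brain from the choroid plexus and the meninges. The medians of the 11 choroid plexus markers tested stood 3.01, 0.41 and 3.85 above the Sham mean in AD samples 1, 2 and 3, and at -0.39, 0.02 and 0.46 in Sham samples 1, 2 and 3. Igf2 had the same order within the AD arrays, with replicate 2 lowest, whereas H19 was higher in AD replicate 2 than in AD replicate 1. Of those 11 markers 0 were called by limma after adjustment, with 7 at an unadjusted p under 0.05 and 5 higher in AD without overlap, as were 15.7% of all named genes. Their summed signal, in multiples of the array's 75th percentile, was 82.2 to 145 in AD and 27.5 to 103 in Sham, so the sums overlapped. A sum weighs the brightest gene most, here Ttr, with levels of 7.01, 6.32 and 6.86 in AD and 4.74, 5.83 and 6.66 in Sham. The overlap of the sums is thus mainly that of Ttr. All 11 markers had a higher mean in AD, and 9 of the 11 were well above background on all 6 arrays.

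H19 is also known from adult skeletal muscle in rodents. Of 11 muscle markers tested 2 rose, Myh1 and Myl11, against 4.10% of all named genes. Without overlap, 8 were higher in AD, against 15.7% of all named genes. Myh4 and Tnnt3, which are among these 8 and in the list's values below, were not well above background on any Sham array. They were tested only because of their AD arrays. The muscle list had medians of 1.19, 0.69 and 2.47 above the Sham mean in AD samples 1, 2 and 3, and summed signals of 3.96 to 9.82 in AD and 2.21 to 3.52 in Sham. AD replicate 3 was the highest array for H19, for Igf2 and for both of these lists. Of 4 bone markers 2 rose, Bglap and Ibsp, of which Bglap was well above background on 1 of 3 Sham arrays and Ibsp on 0 of 3, so that Ibsp was tested only because of its AD arrays and no size is given for either. The list of 11 meningeal and perivascular fibroblast markers had a median difference of -0.13, and Ogn was its single call, with a difference of 0.82 (adjusted p = 0.028 by limma). The part of these tissues in the H19 and Igf2 levels was not tested.

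Beside the genes that stood lower in AD, 4 of 7 markers of GABAergic interneurons fell, against 10.9% of all named genes. They were Vip (-1.34), Dlx1 (-1.06), Gad1 (-0.81) and Npy (-0.65). Sst (-1.04, adjusted p = 0.064), Gad2 (-0.42, adjusted p = 0.0565) and Pvalb (-0.05, adjusted p = 0.79) were not called (limma), and the Pvalb groups overlapped. The summed signal of the list of 7 was 35.6 to 39.8 in AD and 62.7 to 66.2 in Sham. Of 10 markers of hippocampal excitatory neurons, all well above background on all 6 arrays, 1 fell, Fibcd1 (-0.66), and the list's median difference was -0.08. Of the 10 markers, 5 had a higher and 5 a lower mean in AD. Their summed signal was lower on every AD array, at 27.0 to 32.7 in AD and 35.1 to 37.6 in Sham. A sum weighs the brightest gene most, and on every array that was Fibcd1, so no fall of the whole list is read from it. Cldn5 was the single call among 6 endothelial markers, 0.42 higher in AD. Limma called 0 of 5 erythroid and 0 of 5 hypothalamic markers, with 1 of each at an unadjusted p under 0.05. The part of these cell types in the levels of Ndn, Dlk1 and Plagl1 was not tested.

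**Figure D5:**
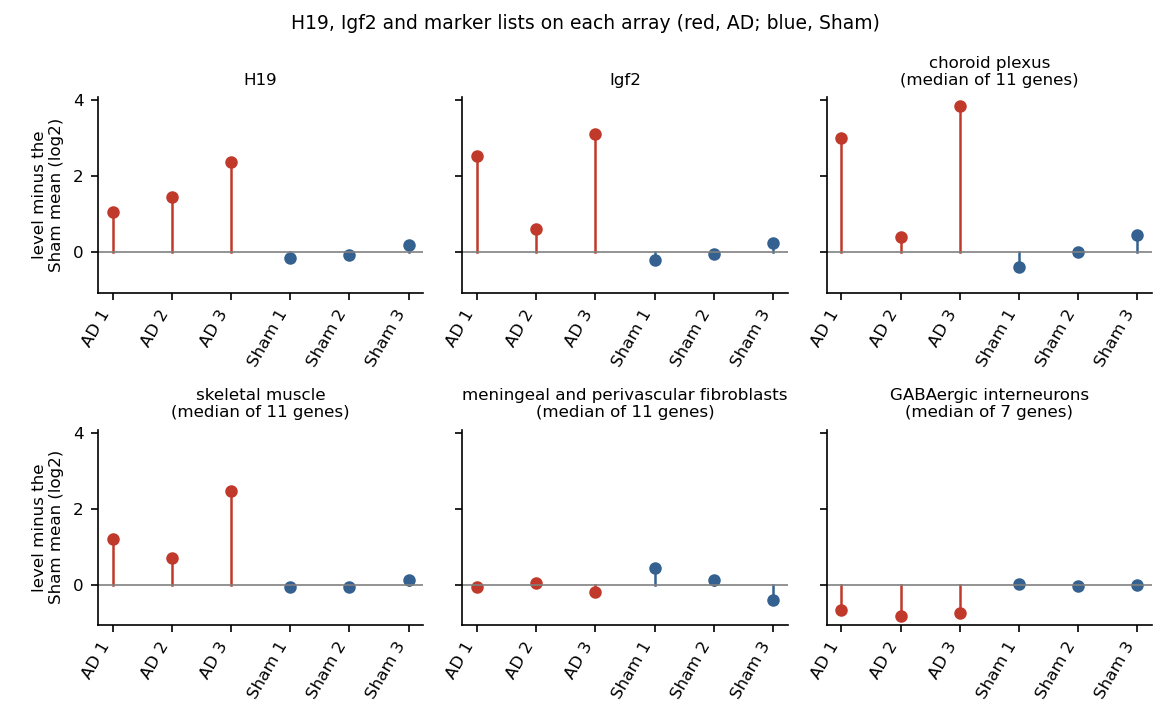
Level minus the Sham mean (log2) on each array, AD arrays in red and Sham arrays in blue, for H19, Igf2 and the median of 4 marker lists. In AD replicate 2 the choroid plexus list is 0.41 above the Sham mean and Igf2 is its lowest AD array, while H19 is higher there than in AD replicate 1; the GABAergic list is below 0 on all 3 AD arrays.

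The genes whose levels ran most like H19 over the 6 arrays were Pawr (Pearson r = 0.995), Ufl1 (r = 0.995) and Mus81 (r = 0.991), among 14137 probes of other named genes of which 86 exceeded r = 0.95. For Dlk1 they were Rbx1, Macroh2a2 and Tmem256 (each r = 0.996, 441 probes over 0.95), and for Plagl1 they were Nf1 (r = 0.997), Heyl (r = 0.996) and Cdk10 (r = 0.995), with 283 probes over 0.95. Among those most like Ndn were Hmgb3 (r = 0.9996) and Entpd6 (r = 0.998), with 1011 probes over 0.95. These correlations share the same 6 arrays and the same division into 2 groups, so they are a description of likeness. Kcnq1, the cluster neighbour of Cdkn1c, had r = 0.995 with it and was the third most alike of 14136 probes, a pair singled out after its values were seen. This value is for the brightest probe of each gene, and the second Kcnq1 probe was not among the 3 most alike.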

How the data were processed

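The authors deposited the scanner output of 6 single-colour Agilent rat 4x44K arrays, 3 AD and 3 Sham. Its values are processed intensity values per spot on a linear scale, background-subtracted, made with Agilent Feature Extraction 11.0.1.1 per the file headers. A deposited table of the authors' processed values on a log2 scale was used as an alternative; its method is not stated in the sources used here, all columns had a median of 6.57, its direction was that of the scanner signals, and its columns for AD replicates 2 and 3 matched the scanner values of AD replicates 3 and 2 (r = 0.994 and 0.999). Replicates are numbered as in the scanner files.

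Outlier-flagged spots (400 to 559 on an array) and controls were dropped, and 0 spots were saturated. Replicate spots were averaged, and log2 signals were reduced by the array's 75th percentile. A probe was tested if well above background on at least 3 of 6 arrays (22768 of 30367 probes). Accessions were matched without version to RefSeq symbols of GRCr8, which named 18005 probes (59.3%). Groups were compared with limma 3.58.1 in R 4.3.3 (lmFit and eBayes, two-sided, Benjamini-Hochberg adjustment over all tested probes, threshold 0.05), and each gene was represented by its brightest tested probe. The number of arrays limits the precision. The code was checked on simulated data.

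The selected genes, the list of further imprinted genes and the marker lists were chosen with earlier results of these data known. Named were all probes of the selected genes, the called imprinted genes, the genes of the same clusters, and the 3 genes most alike to each selected gene whose groups did not overlap, of which 1 is not reported here. Alternatives were quantile normalization, median scaling, a 75th percentile over detected probes, normexp correction (offset 50, on the median signal, because the files hold no mean signal), other filters, the authors' table, blocks for scan, scan day, slide position and replicate number, array weights, the median over a gene's probes, the methods' t-test, and leaving out each array.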

Additional observations from a re-analysis of the deposited data

How the results depend on the processing

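The count of 8 imprinted genes called outside the selected ones was 6 to 9 with the 4 other scalings and corrections and with the authors' table, 2 with no filter on dim probes, 19 with array weights (whose estimation stopped before it converged), 5 with the methods' t-test after Benjamini-Hochberg adjustment and 3 at the methods' own thresholds (a fold change of 2 and an unadjusted p under 0.05). It was 0 with scan as a random block and with slide position as a block (8 and 19 at an unadjusted p under 0.05), and 0 to 11 when 1 array was left out. All these calls were lower in AD except 2 higher ones with array weights. Each of the 8 genes was not called in 8 to 13 of the 18 alternatives run for it. Their direction was kept in all of these, but many could not have turned it. Leaving out an array cannot do so, since the groups of these genes did not overlap. The blocks for slide position and replicate number and the t-test leave the difference itself unchanged. The 2872 probes called became 358 with no filter, 0 with scan as a random block, 4460 with scan day as a fixed block, 0 with slide position as a block, 9870 with array weights, 1854 with the t-test, 327 at the methods' thresholds and 0 to 4460 when 1 array was left out (limma, 3669 and 6477 probes at an unadjusted p under 0.05 for scan and position). The block for scan day gives the same fit as leaving out Sham replicate 3, the only array of its day, so these are not separate alternatives. With the replicate block, 0 probes and 0 imprinted genes were called, with 6480 probes and 16 genes at an unadjusted p under 0.05 (limma). Same-numbered deviations from the group means correlated by 0.028, 0.072 and 0.138. AD replicate 1 correlated best with Sham replicate 2 (0.064), while AD replicates 2 and 3 correlated best with the Sham array of their own number. With 3 arrays a group, these values cannot settle whether the replicate numbers pair the samples. The selected genes without overlap numbered 4 with the other scalings, the normexp correction, the authors' table and the median over a gene's probes. Their number was 4 to 5 when 1 array was left out, a step that can only keep or raise it. Scaling moved the median difference of all probes between -0.06 and 0.07. The t-test, like limma, called 0 of the choroid plexus, erythroid and hypothalamic markers. Of the muscle, fibroblast and excitatory neuron markers it called 0, where limma had called 2, 1 and 1. Of the GABAergic, endothelial and bone markers it called 3, 2 and 2, where limma had called 4, 1 and 2. The cause of these changes was not tested. With 3 arrays a group, the differences seen for Cdkn1c and Snrpn were not separable from the spread of their own probes between arrays.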
